A study of Mus musculus with 1376 samples.

Results

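The 10 genes described here are ones used to recognise lipid-storing fibroblasts of the lung and their handling of fatty acids: Plin2, Pparg, Tcf21, Lpl, Fabp4, Fabp5, Cd36, Fabp1, Gyg and Apoe. They were taken as a list and looked up by symbol among the 46517 genes of a single-cell count table, and all 10 had a row. Cells came from the lungs of 3 mice of the strain labelled ACTA2GFP:CSPG4dsRED, a name that joins a green reporter to ACTA2 and a red one to CSPG4, and were sorted one by one into plates and sequenced by Smart-Seq2, which reads whole transcripts without molecular identifiers. The table held 1376 cells from 2 male mice and 1 female. The labels name no treatment, and every mouse carried the same reporter label. No source used here names the sort gate, so the numbers of cells per class are numbers after an unknown selection.

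The labels disagree in places: the samples carry an age of 8 to 30 weeks and include a female mouse, while the series is described as male mice of 8 to 21 weeks. The tissue label is lung, while the extraction text speaks of heart. The 10 alveolar fibroblast markers all had counts and summed to 3887, 4411 and 5277 CPM (counts per 1e6 counts) in the class described below. That class was named from these markers, so their sum says nothing about the organ. In it 6 cardiomyocyte markers summed to 5.95, 13.5 and 0.469 CPM, with Myh6 at 0. The same 6 summed to 49.95, 34.3 and 25.9 CPM in vascular smooth muscle-like cells. In airway smooth muscle-like cells they summed to 295.9, 813.3 and 43.3 CPM, with Myh6 and Nppa at 0. Whether the cells came from lung or heart was not tested. Male mouse 1 filled plates 045s and 046s and each other mouse filled its own, so the effects of animal, plate and sex cannot be told apart.

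Lipofibroblasts are interstitial cells of the alveolar wall that hold neutral fat in droplets, take up fatty acids from circulating lipoprotein and hand lipid to the epithelium that makes surfactant. Droplets are coated by perilipins, filled from fatty acids that lipoprotein lipase frees and that CD36 and fatty acid binding proteins carry, and in adipocytes the programme is run by the nuclear receptor PPARG. Droplet-rich fibroblasts of the rodent lung have been described mainly around the time of alveolar growth.

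Classes were built by clustering the cells on other genes than the 10, so that no listed gene placed a cell, and each cluster was named from markers. The alveolar fibroblast-like class had 56, 66 and 40 cells; every set of 3 values gives the first male mouse, then the second, then the female. It was set against alveolar myofibroblast-like (26, 40 and 36 cells), vascular smooth muscle cell (SMC)-like (the largest class), pericyte-like (19, 12 and 63), airway SMC-like (42, 13 and 28) and adventitial fibroblast-like cells (18, 19 and 38). The 66 endothelial-like and 59 macrophage-like cells came almost wholly from 1 mouse each (65 from female mouse 1 and 54 from male mouse 1), so their values have no replicate and no test, and 250 cells (18.2%) stayed unnamed. Levels are CPM with trimmed-mean (TMM) scaling of counts summed per class and mouse, fold changes are fitted log2 ratios of alveolar fibroblast-like cells over the other class ± SE, and a gene is called at an adjusted p under 0.05 in edgeR's quasi-likelihood test with Benjamini-Hochberg adjustment over 16231 genes. Since the cells were sorted into classes from their own transcriptomes, genes that vary together with the clustered ones are not fully independent of the classes.

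The levels fell into 3 patterns. Gyg stood apart from every other class in alveolar fibroblast-like cells. Plin2, Lpl and Tcf21 were each high there and shared with at most a few other classes, and Apoe was high almost everywhere. Cd36, Fabp4, Fabp5, Pparg and Fabp1, the genes of fatty acid transport and of the adipocyte programme, were sparse in this class. Of the 50 comparisons of a gene with a class, 45 could be tested and Fabp1 had too few counts; 16 were called, all higher in alveolar fibroblast-like cells and 0 lower.

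Read against all genes, 3 of the 10 were called higher than in alveolar myofibroblast-like cells, where 1.29% of all tested genes were called higher and 0.745% lower. Against vascular SMC-like cells 4 were called higher, with 3.49% of all genes higher and 2.4% lower. Against pericyte-like cells 3 were called higher, with 3.8% of all genes higher and 1.74% lower. Against airway SMC-like cells 5 were called higher, with 2.86% of all genes higher and 1.71% lower, and that count fell to 3 without male mouse 1 or without female mouse 1. Against adventitial fibroblast-like cells 1 was called higher, with 0.166% of all genes higher and 0.154% lower, and that count was 0 when any of the 3 mice was left out. The same shares of all genes stand beside the counts of the gene lists below.

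**Figure D1:**
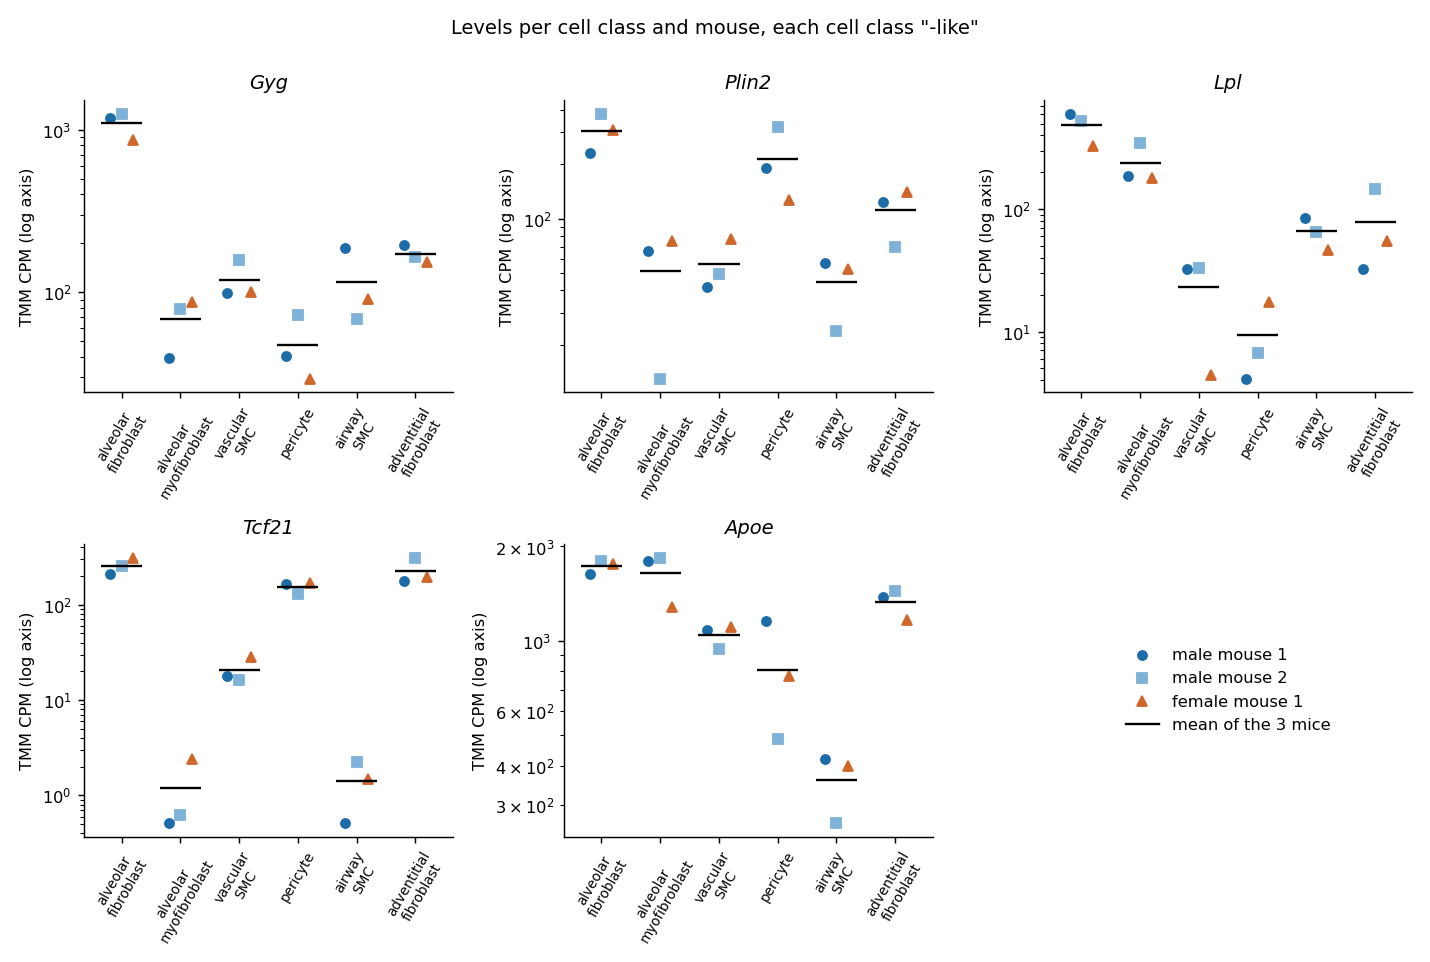
Level of the 5 abundant genes in each cell class (TMM CPM, log axis). Each point is 1 mouse (n = 3) and the bar is the mean over the mice; in Gyg the 3 alveolar fibroblast-like values, 868 to 1254 CPM, lie above all others, the next highest being 194.8 CPM, while the lowest Apoe value of the 6 tested classes is 262.6 CPM.

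**Figure D2:**
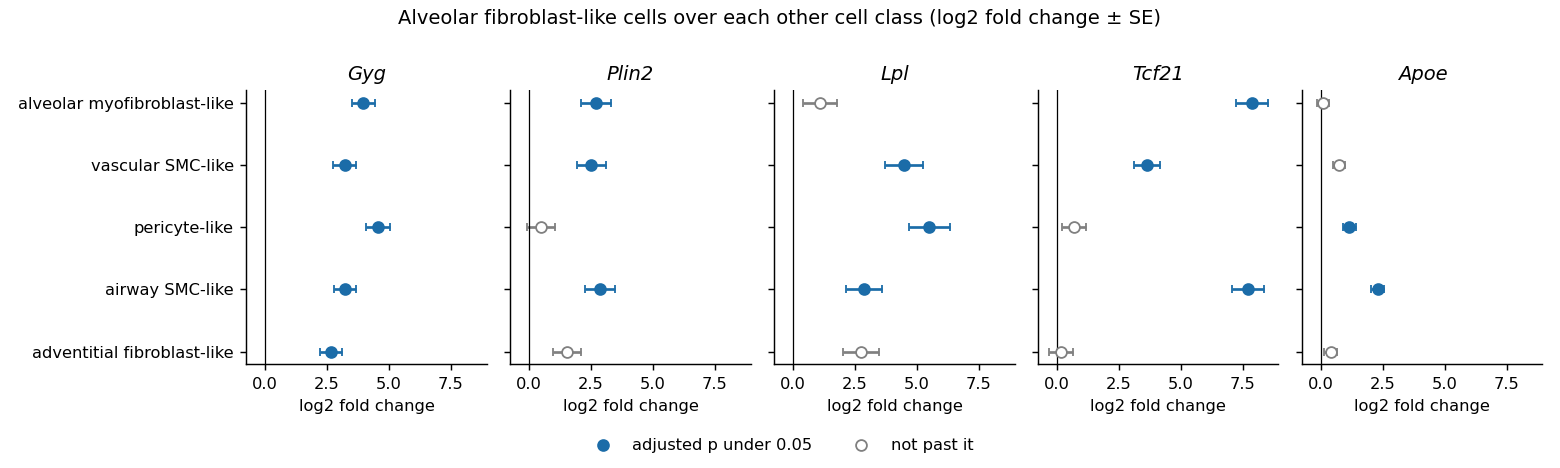
Fitted log2 fold change of alveolar fibroblast-like cells over each other class (points, with SE as bars) for the same 5 genes. Filled points passed an adjusted p under 0.05 in edgeR's quasi-likelihood test; Gyg is filled in all 5 comparisons, Lpl and Plin2 in 3, Tcf21 in 3 and Apoe in 2.

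Gyg encodes glycogenin, the protein that primes new glycogen chains (GRCm38 chr3:20122084-20155317, minus strand). It had 1175, 1254 and 868 CPM in alveolar fibroblast-like cells, against 194.8, 165.2 and 153.1 CPM in adventitial fibroblast-like cells, the next class by mean. In vascular SMC-like cells it had 98.5, 158.7 and 99.7 CPM, in airway SMC-like cells 187.1, 68.2 and 91.1 CPM. In alveolar myofibroblast-like cells it had 39.3, 78.9 and 87.1 CPM, and in pericyte-like cells 40.6, 72.8 and 29.2 CPM. No mouse's value in another class came near the lowest alveolar fibroblast-like value, and the 5 other classes overlapped their neighbours in the order of means. The edgeR quasi-likelihood test called Gyg higher in alveolar fibroblast-like cells than in alveolar myofibroblast-like (log2 fold change 3.97 ± 0.46, adjusted p = 0.000208), vascular SMC-like (3.21 ± 0.45, 0.000403), pericyte-like (4.57 ± 0.48, 5.31e-05) and airway SMC-like cells (3.22 ± 0.45, 0.000627). Against adventitial fibroblast-like cells the log2 fold change was 2.67 ± 0.44 (edgeR adjusted p = 0.0165). That last call was lost when any mouse was left out, with log2 fold changes of 2.51 to 2.69 and edgeR adjusted p of 0.191 to 0.273. It was also lost with another split of the genes (1.71), on plate 046s alone (2.31) or plate 045s alone (3.04) for male mouse 1, and without cells of mixed markers (2.31).

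Gyg was found in most single alveolar fibroblast-like cells: 95.1% had a count and 92.6% reached 10 CPM. The median cell had 1169, 989 and 805.0 CPM in the 3 mice. In the 2 clusters that made up the pericyte-like class the gene differed, at 57.7, 144.7 and 44.2 CPM (total-count scale) in the cluster led by Col8a1 and at 0, 30.1 and 4.65 CPM in the one led by 9230104L09Rik, Adcy8 and Clstn2. Of 27 tested genes of glycogen synthesis and breakdown, Gyg included, 2 were called higher and 0 lower than in alveolar myofibroblast-like cells, and 2 higher and 3 lower than in vascular SMC-like cells. Against pericyte-like cells 2 were called higher, against airway SMC- and adventitial fibroblast-like cells 1 each, which was Gyg, and 0 lower. Ppp1r3a, a subunit that targets protein phosphatase 1 to glycogen, was the other gene called higher against myofibroblast- and pericyte-like cells. It had a mean of 89.04 CPM in alveolar fibroblast-like cells, against 0.637, 0.124 and 0.33 CPM in alveolar myofibroblast-like cells. Vascular SMC-like cells carried it too, at 92.63, 68.46 and 30.98 CPM, which overlapped the alveolar fibroblast-like range. That difference was not called (log2 fold change 0.58 ± 1.15). Airway SMC- and adventitial fibroblast-like cells averaged 8.43 and 7.60 CPM, also without a call. Phkg1, a catalytic subunit of phosphorylase kinase, was called lower than in vascular SMC-like cells, with 2.18, 5.04 and 2.34 CPM against 71.99, 77.3 and 107.7 CPM there (log2 fold change -4.94 ± 1, edgeR adjusted p = 0.00736).

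The start regions of Gyg, Plin2 and Tcf21, 3 of the 4 genes called in at least 3 comparisons (Lpl is the other), are shown so that their sequence can be read beside their levels. They are RefSeq windows of 300 bases on GRCm38.p6, written 5′ to 3′ on the gene's strand: Gyg at chr3:20155067-20155366 (minus strand), Plin2 at chr4:86670010-86670309 (minus strand) and Tcf21 at chr10:22820094-22820393 (minus strand). Capitals mark AGGTCA, the half-site of nuclear receptors such as PPARG, and CAGCTG, an E-box of the kind bound by basic helix-loop-helix factors such as TCF21, on either strand (TGACCT is the first motif read on the other strand, and CAGCTG reads the same on both).
Gyg: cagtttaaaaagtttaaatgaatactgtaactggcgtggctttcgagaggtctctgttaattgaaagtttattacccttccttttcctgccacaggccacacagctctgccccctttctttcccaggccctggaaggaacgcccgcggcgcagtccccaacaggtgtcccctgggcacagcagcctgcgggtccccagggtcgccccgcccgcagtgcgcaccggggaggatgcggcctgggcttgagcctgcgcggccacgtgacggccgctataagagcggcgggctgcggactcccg
Plin2: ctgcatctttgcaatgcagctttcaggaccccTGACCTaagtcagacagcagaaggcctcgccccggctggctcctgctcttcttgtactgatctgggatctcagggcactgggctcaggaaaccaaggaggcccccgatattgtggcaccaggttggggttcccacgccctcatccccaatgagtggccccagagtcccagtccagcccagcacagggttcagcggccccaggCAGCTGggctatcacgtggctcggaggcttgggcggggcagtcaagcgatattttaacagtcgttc
Tcf21: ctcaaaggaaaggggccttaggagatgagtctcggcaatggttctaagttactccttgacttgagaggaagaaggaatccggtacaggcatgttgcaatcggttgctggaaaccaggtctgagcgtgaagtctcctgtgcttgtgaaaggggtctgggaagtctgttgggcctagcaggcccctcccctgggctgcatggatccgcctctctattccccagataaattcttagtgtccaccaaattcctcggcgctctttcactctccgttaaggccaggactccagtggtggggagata
The Plin2 window held AGGTCA once and CAGCTG once, and the Gyg and Tcf21 windows held neither. AGGTCA stood in 16.3% and CAGCTG in 16.3% of the 32851 promoter windows of all genes, so a single match is common. Of the 10 genes, 7 had a window (11 windows with alternative starts), 5 of the 11 held AGGTCA and 2 held CAGCTG; Cd36, Fabp1 and Pparg held AGGTCA besides Plin2, and Fabp1 held CAGCTG besides Plin2. Lpl, Fabp4 and Fabp5 were not among the windows used here. These matches describe letters and say nothing about binding.

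Plin2 encodes perilipin 2, the coat protein of fat droplets in most cells that are not adipocytes, and its transcript is a usual marker of droplet content (chr4:86648386-86670060, minus strand). It had 230.4, 380.9 and 308.4 CPM in alveolar fibroblast-like cells. In alveolar myofibroblast-like cells it had 66.1, 12.9 and 75.02 CPM, in vascular SMC-like cells 41.6, 49.6 and 76.8 CPM, and in airway SMC-like cells 56.7, 23.7 and 52.5 CPM. Every alveolar fibroblast-like value lay above every value of these 3 classes. The edgeR quasi-likelihood test called the difference from alveolar myofibroblast-like (log2 fold change 2.71 ± 0.60, adjusted p = 0.0303), vascular SMC-like (2.51 ± 0.59, 0.019) and airway SMC-like cells (2.87 ± 0.60, 0.0122). These calls were lost under more of the alternatives than those of Gyg against the same classes: the myofibroblast call was lost with any mouse left out, with a log2 fold change of 1.87 without male mouse 2 and 3.19 without male mouse 1, and the vascular and airway calls without male mouse 1 or without female mouse 1 (edgeR adjusted p up to 0.466, 0.338 and 0.194 over the alternatives tried).

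Plin2 was not set apart from the other fibroblast class or from pericyte-like cells by the test. Adventitial fibroblast-like cells had 123.7, 69.7 and 139.7 CPM, all under the lowest alveolar fibroblast-like value, but the difference did not pass (log2 fold change 1.54 ± 0.57, edgeR adjusted p = 0.494). In male mouse 1 their value was 45.8 CPM on plate 045s and 216.5 CPM on plate 046s (total-count scale, 9 cells each). Alveolar fibroblast-like cells had 209.7 and 262.8 CPM on these plates. Pericyte-like cells had 190.1, 322.4 and 127.1 CPM, which overlapped the alveolar fibroblast-like range (0.48 ± 0.56, edgeR adjusted p = 0.754). The pericyte-like value of male mouse 1 rested on few cells: 1 of 19 cells held 49.4% of its counts, and the cells of its 2 plates stood at 1.02 CPM on plate 045s and at 290.8 CPM on plate 046s. Outside the tested classes, macrophage-like cells of male mouse 1 had 736 CPM, more than any mesenchymal class, and endothelial-like cells of female mouse 1 had 186.9 CPM. Macrophage markers in alveolar fibroblast-like cells summed to 97.4, 63.9 and 66.4 CPM over 10 genes, against 7.65 to 29.7 CPM in alveolar myofibroblast-like cells; their part in the Plin2 difference was not tested, beyond the alternative without cells bearing markers of other types, in which the log2 fold changes were 2.75 against the myofibroblast-like and 2.38 against the vascular SMC-like class, from fewer cells, and neither was called (edgeR adjusted p = 0.062 and 0.0544).

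Genes of the droplet coat and of droplet turnover, Plin2 included, were taken as a list of 24, of which 19 were tested. Against alveolar myofibroblast-like cells 2 were called higher and 1 lower, with a median log2 fold change of 0.33 over the list and 0.14 over all genes. Against vascular SMC-like cells 2 were called higher and 3 lower, against pericyte-like cells 0 and 1, against airway SMC-like cells 2 and 2, and against adventitial fibroblast-like cells 0 and 0. The second gene called higher than in alveolar myofibroblast-like cells was G0s2, an inhibitor of the fat-splitting enzyme ATGL, with 273.4 ± 35.4 CPM (SD, n = 3) in alveolar fibroblast-like cells, against 22.4, 32.2 and 36.4 CPM in alveolar myofibroblast-like cells (log2 fold change 3.16 ± 0.46, edgeR adjusted p = 0.00123). It was also called against vascular SMC-like (4.34 ± 0.48, edgeR adjusted p = 6.21e-05) and airway SMC-like cells (2.95 ± 0.45, 0.00137) and, like Plin2, not against pericyte-like cells, where it had 159.6, 148.3 and 161.9 CPM (edgeR adjusted p = 0.348), or adventitial fibroblast-like cells (0.15).

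Plin4, another perilipin, ran the other way. It had 0.267, 0.36 and 0.292 CPM in alveolar fibroblast-like cells, against 222.2, 246.8 and 340.5 CPM in vascular SMC-like cells (log2 fold change -9.69 ± 1.63, edgeR adjusted p = 0.00198), and was also lower than in airway SMC-like cells (-7.32 ± 1.49, 0.00982) and alveolar myofibroblast-like cells (-6.39 ± 1.46, 0.0354). In the myofibroblast-like class it stood at 44.4 and 28.6 CPM in male mouse 1 and female mouse 1 but at 0.373 CPM in male mouse 2, about the alveolar fibroblast-like level. Hilpda, a droplet protein induced by low oxygen, had 25.7, 19.9 and 32.4 CPM in alveolar fibroblast-like cells and was called lower than in pericyte-like cells (log2 fold change -2.50 ± 0.58, edgeR adjusted p = 0.0193). Mgll, which splits monoglycerides, was called lower than in airway SMC-like cells (log2 fold change -3.91 ± 0.68, edgeR adjusted p = 0.00318). Plin1, the perilipin of adipocytes, had counts in 7 alveolar fibroblast-like cells (6.28, 0 and 21.0 CPM), Cidec in 1 cell, and Adipoq was at 0 in the 6 tested classes; none of these 3 had enough counts for a test. Dgat2, which makes the last bond of triglyceride, stood at 32.1 ± 2.65 CPM (SD, n = 3) and was called against none of the 5 classes by edgeR.

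Lpl encodes lipoprotein lipase, which frees fatty acids from triglyceride-rich lipoprotein outside the cell (chr8:68880491-68907448, plus strand). It had 603.2, 522.8 and 328.4 CPM in alveolar fibroblast-like cells, the highest mean of the 6 tested classes. Alveolar myofibroblast-like cells came next with 186.2, 345.2 and 180.5 CPM, a range that overlapped it, and the difference did not pass (log2 fold change 1.08 ± 0.68, edgeR adjusted p = 0.644). Airway SMC-like cells had 85.1, 65.6 and 46.5 CPM, vascular SMC-like cells 32.2, 33.3 and 4.43 CPM and pericyte-like cells 4.08, 6.66 and 17.5 CPM, all below every alveolar fibroblast-like value. Lpl was called against pericyte-like (5.50 ± 0.83, edgeR adjusted p = 0.000972), vascular SMC-like (4.48 ± 0.78, 0.00238) and airway SMC-like cells (2.87 ± 0.72, 0.0358). The vascular call was lost without male mouse 2 (edgeR adjusted p = 0.0605) and the airway call without any one of the mice (up to 0.282). Adventitial fibroblast-like cells had 32.1, 147.2 and 55.2 CPM, with no overlap but no call (2.75 ± 0.73, edgeR adjusted p = 0.2), whereas DESeq2 and limma on mean CPM called it. Lpl was uneven between single alveolar fibroblast-like cells: 90.7% had a count, the medians were 481.7, 359.9 and 259.4 CPM, and the highest cell reached 2578 CPM.

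**Figure D3:**
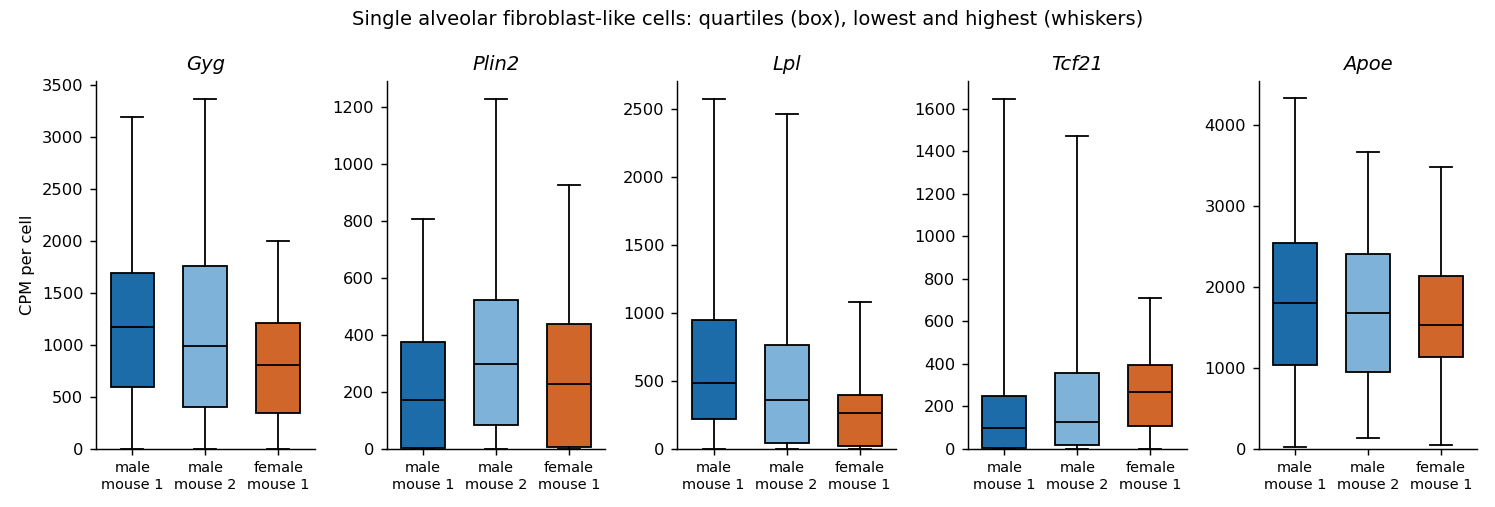
CPM per single alveolar fibroblast-like cell by mouse (56, 66 and 40 cells). The box spans the quartiles with the median as a line and the whiskers reach the lowest and highest cell; the lower quartile of Plin2 is 2.90 CPM in male mouse 1 and 5.17 CPM in female mouse 1, while that of Gyg is 597.9 and 397.3 CPM in the males.

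Of the genes of fatty acid uptake, binding and activation 23 were tested, Lpl, Cd36, Fabp4 and Fabp5 included. Against alveolar myofibroblast-like cells 1 was called higher, and against vascular SMC-like cells 5 higher and 2 lower. Against pericyte-like cells 2 were called higher and 1 lower, and against airway SMC-like cells 5 higher. Lpl was among those called higher than in vascular SMC-, pericyte- and airway SMC-like cells. Against adventitial fibroblast-like cells 0 were called in either direction (edgeR; at an unadjusted p under 0.05, 1204 of all 16231 genes passed in that last comparison). In the same order, 1.29%, 3.49%, 3.8%, 2.86% and 0.166% of all genes were called higher, and 0.745%, 2.4%, 1.74%, 1.71% and 0.154% lower. Slc27a3, an acyl-CoA synthetase of the fatty acid transport family, was the gene called against alveolar myofibroblast-like cells, with 130.1 ± 104.7 CPM (SD, n = 3) against 0, 0 and 1.76 CPM there (edgeR adjusted p = 0.00591). Adventitial fibroblast-like cells carried it too, at 127.3, 32.1 and 192.2 CPM (edgeR adjusted p = 1). Cav1, which builds caveolae, was lower than in vascular SMC-like cells, at 310.5, 634.4 and 294.8 CPM against 1310, 2208 and 1074 CPM (log2 fold change -1.91 ± 0.27, edgeR adjusted p = 0.000421).

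Tcf21 encodes a basic helix-loop-helix factor of lung mesenchyme that marks the lineage from which mouse lipofibroblasts arise (chr10:22817281-22820174, minus strand). It had 207.6, 253.8 and 311.6 CPM in alveolar fibroblast-like cells, and 0.51, 0.621 and 2.42 CPM in alveolar myofibroblast-like cells. Airway SMC-like cells had 0.51, 2.26 and 1.47 CPM, and vascular SMC-like cells averaged 20.8 ± 6.32 CPM (SD, n = 3). The alveolar fibroblast-like values stood clear of all 3 classes in every mouse. The edgeR quasi-likelihood test called Tcf21 higher than in alveolar myofibroblast-like (log2 fold change 7.86 ± 0.64, adjusted p = 1.26e-05), airway SMC-like (7.70 ± 0.65, 7.02e-06) and vascular SMC-like cells (3.64 ± 0.52, 0.000512), and these calls held under every alternative that could be fitted.

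Tcf21 did not separate the remaining classes. Adventitial fibroblast-like cells had 176.3, 306.3 and 193.3 CPM (edgeR adjusted p = 1), and pericyte-like cells averaged 154.1 ± 22.5 CPM (SD, n = 3), with each value below every alveolar fibroblast-like value but not called (log2 fold change 0.69 ± 0.47, edgeR adjusted p = 0.512). Counts in a cell of the low classes were few: 24.5% of alveolar myofibroblast-like cells had at least 1 Tcf21 count but 3.92% reached 10 CPM, against 82.7% and 78.4% of alveolar fibroblast-like cells. Among 25 tested regulators of the PPAR, C/EBP, SREBP and LXR families and partners, Tcf21 included, 1 was called higher than in alveolar myofibroblast-like cells, 2 each than in vascular SMC-like and pericyte-like cells, 1 than in airway SMC-like cells and 0 than in adventitial fibroblast-like cells, and 0 were called lower. Cebpd, a C/EBP factor of adipocyte differentiation, stood at 333.5, 196.4 and 250.8 CPM, against 101.6, 33.5 and 50.3 CPM in vascular SMC-like cells (2.20 ± 0.33, edgeR adjusted p = 0.000712) and 126.7, 78.4 and 41.5 CPM in pericyte-like cells (1.77 ± 0.32, 0.00402). Its mean of 260.2 CPM lay below those of airway SMC-like (573.1 CPM), adventitial fibroblast-like (416.2 CPM) and alveolar myofibroblast-like cells (329.8 CPM), without a call. Fgf10, a growth factor of lipofibroblasts in the mouse lung, had 190.8 CPM as a mean in alveolar fibroblast-like cells and 124.5 CPM in alveolar myofibroblast-like cells, a difference that was not called (edgeR adjusted p = 0.98).

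Pparg, the nuclear receptor that drives fat storage in adipocytes, was sparse (chr6:115360951-115490399, plus strand). In alveolar fibroblast-like cells 3 cells (1.85%) had a count, giving 7.13, 1.74 and 0 CPM, and those 3 cells stood at 165.9, 83.9 and 109.4 CPM. Detection was thus rare. Since reads carry no molecular identifiers, these values do not show how many Pparg transcripts a cell held. All 3 cells also had Plin2 counts. Alveolar myofibroblast-like cells had 0 cells with a count, which allows a share of up to 2.94% of cells with a count, and airway SMC-like cells 0 of 83, which allows up to 3.61%; these limits take 3 cells of the class, pool the cells of the mice as if independent, and do not bound the share of cells that express the gene below detection. Vascular SMC-like cells had counts in 16 cells (3.3%; 1.52, 7.72 and 2.54 CPM), pericyte-like cells in 1 of 94 and adventitial fibroblast-like cells in 2 of 75, with 79 of the 80 counts of the adventitial class in a single cell. The edgeR quasi-likelihood test called Pparg against none of the 5 classes (adjusted p from 0.238 to 1); at an unadjusted p under 0.05, it passed against the myofibroblast-like (p = 0.0259) and airway SMC-like (p = 0.03) classes, both at 0. Gm44079, a gene on the other strand of the Pparg locus, had no exon in common with it.

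**Figure D4:**
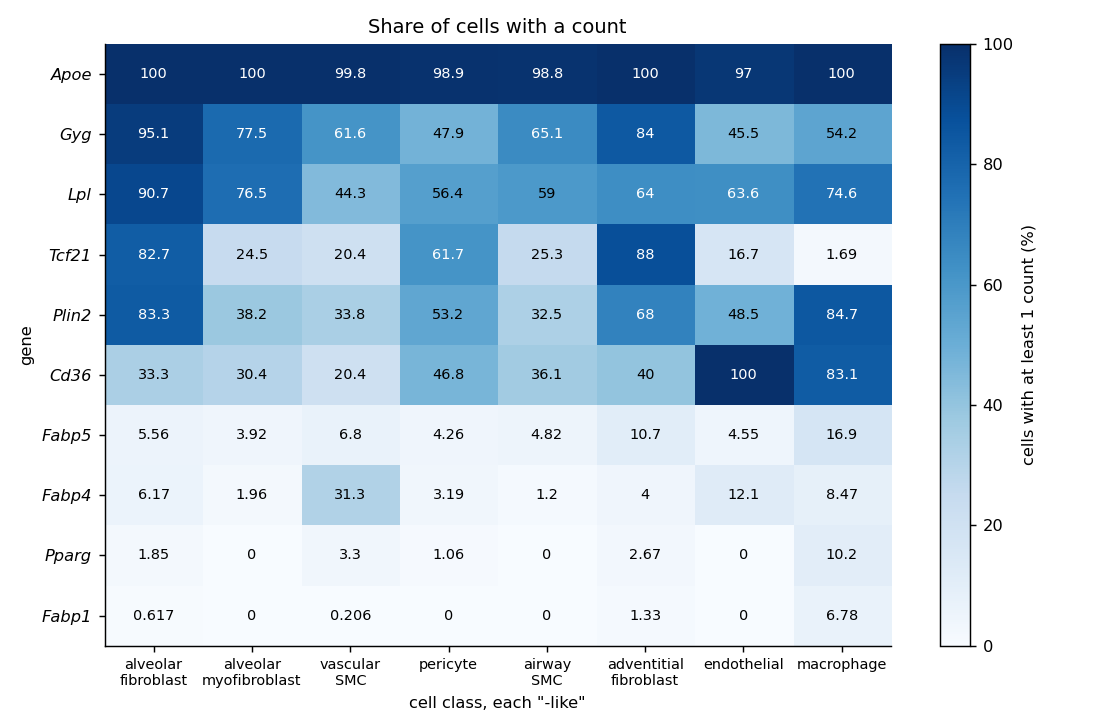
Share of cells with at least 1 count for each gene (rows) and class (columns), in percent. Apoe was found in nearly every cell; Cd36 is at 100% in endothelial-like cells and Fabp4 peaks at 31.3% in vascular SMC-like cells, whereas Pparg stays at 3.3% or less in the 6 mesenchymal classes.

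Of the fatty acid binding proteins, which carry fatty acids inside cells, Fabp4 is the form of adipocytes and capillary endothelium, Fabp5 a form of epithelium and macrophages and Fabp1 that of liver and gut. Fabp4 lies at chr3:10204088-10208576 (minus strand), Fabp5 at chr3:10012548-10016607 (plus strand) and Fabp1 at chr6:71199827-71205023 (plus strand). Fabp4 had 3.16, 2.52 and 0 CPM in alveolar fibroblast-like cells, with counts in 10 cells (6.17%). Vascular SMC-like cells had 24.5, 58.04 and 20.2 CPM, with counts in 31.3% of cells, and every one of their values lay above the alveolar fibroblast-like values. The edgeR test did not call the difference (log2 fold change -4.85 ± 1.59, adjusted p = 0.106, unadjusted p = 0.00841), whereas DESeq2 and limma on mean CPM did. Both vascular clusters carried the gene, at 20.8, 59.2 and 11.45 CPM (total-count scale) in the cluster led by P2rx1 and 57.4, 40.8 and 29.3 CPM in that led by Efhd1. The 4 other tested classes held 1 to 3 Fabp4 counts in all, and endothelial-like cells of female mouse 1 had 0.908 CPM with 8 of 65 cells positive.

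Fabp5 was detected in 9 alveolar fibroblast-like cells (5.56%), at 2.10, 4.98 and 1.83 CPM, and the class means ran from 2.26 CPM in alveolar myofibroblast-like to 8.93 CPM in adventitial fibroblast-like cells with overlapping ranges. In airway SMC-like cells the highest of 4 cells with a count stood at 580.3 CPM. No comparison was called by edgeR (adjusted p from 0.921 to 1; 0 of 5 at an unadjusted p under 0.05). The macrophage-like cells of male mouse 1 had 29.2 CPM. Fabp1 had 79 counts in 8 cells of all 1376, 1 of these counts in an alveolar fibroblast-like cell, and 4 of the 59 macrophage-like cells were positive; it passed no filter and was not tested.

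**Figure D5:**
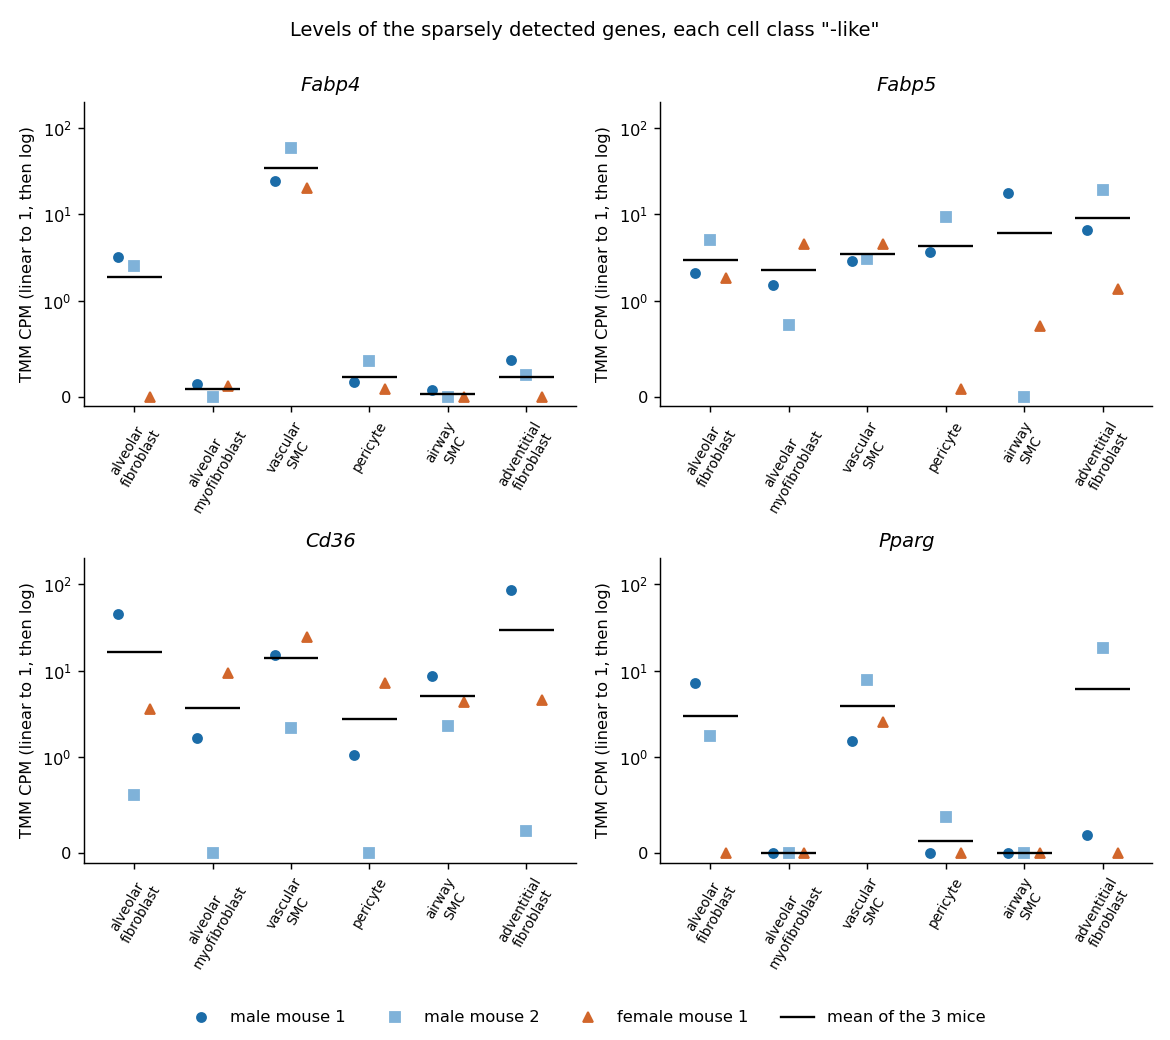
Level of 4 sparsely detected genes by class (TMM CPM, linear up to 1 and logarithmic above). Points are mice and bars their means (n = 3); the 3 vascular SMC-like Fabp4 values lie between 20.2 and 58.04 CPM while the alveolar fibroblast-like values reach 3.16 CPM, and the alveolar fibroblast-like Cd36 values run from 0.6 to 44.7 CPM.

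Cd36 encodes a scavenger receptor that takes up long-chain fatty acids (chr5:17781690-17888801, minus strand). In alveolar fibroblast-like cells it had 44.7, 0.6 and 3.58 CPM, and 80.1% of the counts of male mouse 1 came from 1 cell with 803 counts. Adventitial fibroblast-like cells had 84.5, 0.228 and 4.60 CPM, with 99.5% of the first value from 1 cell. No comparison was called by edgeR (adjusted p from 0.6 to 1; 0 of 5 at an unadjusted p under 0.05), and each class overlapped its neighbours in the order of means. The cells where Cd36 was abundant lay outside the fibroblast classes: all 65 endothelial-like cells of female mouse 1 had counts and summed to 2584 CPM, and macrophage-like cells of male mouse 1 had 810 CPM. In the adventitial class of male mouse 1, macrophage markers summed to 434.7 CPM and epithelial markers to 1403 CPM; their part in its Cd36 value was not tested.

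Low Cd36 counts moved with the plate. Of the mesenchymal cells, 13.9% on plate 045s, 25.2% on plate 046s, 3.83% on the plate of male mouse 2 and 55.8% on that of female mouse 1 had 1 to 3 counts. The plates held 1, 0, 0 and 65 endothelial-like and 24, 30, 4 and 1 macrophage-like cells. Whether RNA from those cells gave the low counts was not tested, and no share of cells with a Cd36 count is read as expression here.

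Apoe encodes apolipoprotein E, which lipid-laden cells and macrophages secrete with cholesterol (chr7:19696109-19699188, minus strand). It was found in 1371 of 1376 cells and had 1632, 1799 and 1762 CPM in alveolar fibroblast-like cells. Alveolar myofibroblast-like cells had 1800, 1843 and 1279 CPM (edgeR adjusted p = 0.989) and adventitial fibroblast-like cells 1378, 1442 and 1168 CPM (0.848). Vascular SMC-like cells had 1080, 945 and 1106 CPM, all lower than in alveolar fibroblast-like cells but not called (edgeR adjusted p = 0.114). Airway SMC-like cells were lowest with 420, 262.6 and 400.7 CPM, and this difference was called under every alternative that could be fitted (log2 fold change 2.29 ± 0.26, edgeR adjusted p = 9.42e-05).

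Pericyte-like cells had 1160, 486.5 and 774.5 CPM of Apoe, and alveolar fibroblast-like cells were called higher (log2 fold change 1.15 ± 0.25, edgeR adjusted p = 0.0133). That value averaged 2 unlike clusters: the one led by Col8a1 had 1639, 1187 and 1200 CPM (total-count scale; 14, 4 and 33 cells), and the one led by 9230104L09Rik, Adcy8 and Clstn2 had 23.5, 21.1 and 80.3 CPM (5, 8 and 30 cells). Of the 10 leading genes, 1 was a pericyte marker in the Col8a1 cluster and 0 in the Clstn2 cluster. The mean scaled level of the pericyte markers was nevertheless higher in the Clstn2 cluster (2.21 against 1.02). The call was lost with any mouse left out (edgeR adjusted p from 0.0666 to 0.132) and with a coarser clustering or another split of the genes, where the log2 fold change was 0.17 and 0.13. Macrophage-like cells of male mouse 1 had 4513 CPM and endothelial-like cells of female mouse 1 had 32.1 CPM.

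Of 25 tested genes of apolipoproteins and cholesterol handling, Apoe included, 2 were called higher than in alveolar myofibroblast-like cells, 2 than in vascular SMC-like, 5 than in pericyte-like with 1 lower, 4 than in airway SMC-like and 0 than in adventitial fibroblast-like cells. Pltp, which moves phospholipid between lipoproteins, was called against 4 classes, with 682, 677.5 and 1187 CPM against a mean of 194.4 CPM in alveolar myofibroblast-like cells (2.16 ± 0.26, edgeR adjusted p = 0.000342). Adventitial fibroblast-like cells had more of it, 1242, 1611 and 1868 CPM, without a call (edgeR adjusted p = 0.217). Npc2, which exports cholesterol from lysosomes, had 503.3, 430.8 and 350.8 CPM against 160.7, 114.6 and 95.6 CPM in pericyte-like cells (1.81 ± 0.22, edgeR adjusted p = 0.000165). It was as high in adventitial fibroblast-like cells, at 612.6, 388.1 and 322.8 CPM. Alveolar myofibroblast-like cells averaged 280.5 CPM, without a call. Ch25h, which makes 25-hydroxycholesterol, had 69.7, 106.9 and 100.8 CPM against 0.51, 0.497 and 0.769 CPM in alveolar myofibroblast-like cells (7.22 ± 1.72, edgeR adjusted p = 0.044).

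Of 23 tested genes of fatty acid and triglyceride synthesis, 1, 0, 2, 1 and 0 were called higher than in alveolar myofibroblast-, vascular SMC-, pericyte-, airway SMC- and adventitial fibroblast-like cells, and 0 lower in each, beside 1.29%, 3.49%, 3.8%, 2.86% and 0.166% of all genes called higher; counts this small are not read as a difference from all genes. Lpin3, a phosphatidate phosphatase, gave 3 of these 4 calls, with 22.9, 12.1 and 23.4 CPM in alveolar fibroblast-like cells and a mean of 0.23 CPM or less in each of the 3 classes. Of 23 tested genes of fatty acid oxidation 2 were called in any comparison: Hadh was called higher than in pericyte-like cells and Cpt1b, the muscle form of carnitine palmitoyltransferase 1, lower than in vascular SMC-like cells (0.223, 0.48 and 0.292 CPM against 22.5, 20.5 and 48.3 CPM; -6.36 ± 1.27, edgeR adjusted p = 0.00662).

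A list of 20 genes taken from the lipofibroblast literature, which holds all 10 genes above and so repeats them, had 19 tested members. Of these 5, 8, 7, 9 and 1 were called higher against the same 5 classes and 0 lower, with medians of 2.07, 1.16, 2.30, 2.42 and 0.79 on the log2 scale beside 0.14, -0.08, 0.27, 0.22 and 0.22 over all genes. Macf1, a cytoskeletal linker of that list, averaged 1545 ± 205.7 CPM in alveolar fibroblast-like cells, against 236.9 to 295.6 CPM in the 4 classes where it was called. Rbp4, which carries retinol, had 141.6 ± 68.9 CPM, against 1.28 CPM in vascular SMC-like cells (6.63 ± 0.83, edgeR adjusted p = 0.00017) and 1.36 CPM in pericyte-like cells (6.63 ± 0.85, 0.000277). Adventitial fibroblast-like cells had more of it, 283.6, 336.2 and 231.3 CPM, without a call. Airway SMC-like and alveolar myofibroblast-like cells averaged 82.4 and 29.9 CPM, also without a call.

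Among the named genes of these lists, the calls of Cav1, Rbp4, Fgf10 and Npc2 against vascular SMC-like cells, of G0s2, Cebpd and Pltp against the same class, and of Rbp4 and Npc2 against pericyte-like cells held with any 1 mouse left out. That of Rbp4 against pericyte-like cells was lost with another split of the genes, where the log2 fold change was 2.88 (edgeR adjusted p = 0.113). Those of Ppp1r3a, Phkg1, Hilpda, Lpin3, Hadh and Cpt1b were lost without each mouse in turn, as was that of Ch25h against alveolar myofibroblast-like cells. Those of Mgll, of Plin4 against airway SMC- and alveolar myofibroblast-like cells and of G0s2 against alveolar myofibroblast-like cells were lost without male mouse 1 or without female mouse 1, and so was that of Cebpd against pericyte-like cells. The calls of Slc27a3 were lost without male mouse 2 in all 4 of its comparisons, and also without male mouse 1 against alveolar myofibroblast-like and without female mouse 1 against airway SMC-like cells, and those of Pltp against alveolar myofibroblast-, pericyte- and airway SMC-like cells without male mouse 1. Plin4 against vascular SMC-like and G0s2 against airway SMC-like cells were lost without female mouse 1, and Macf1 without male mouse 2 in all 4 of its comparisons and without female mouse 1 in all of them but that with pericyte-like cells. The directions of these calls stayed the same.

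Compared per kilobase of exon, a scale on which genes can be set beside each other, the mean levels in alveolar fibroblast-like cells ran from Apoe (810 CPM per kb) through Gyg (468.9), Tcf21 (109.7), Plin2 (87.3) and Lpl (46.3) to Cd36 (4.54), with the others at 1.001 or less. The order of these first 6 was the same when the principal transcript's length was used; that of Pparg, Fabp5 and Fabp4 changed.

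Counts of Plin2, Tcf21, Lpl, Gyg and Apoe all stood in 55.4%, 63.6% and 62.5% of the alveolar fibroblast-like cells of the 3 mice, 60.5% over the mice. The share was 33.3% in adventitial fibroblast-like cells, and 9.57% in pericyte-like, 7.84% in alveolar myofibroblast-like, 4.82% in airway SMC-like and 1.86% in vascular SMC-like cells. Median depths per cell differed between classes, at 356694, 274574.5 and 346486.5 counts in alveolar fibroblast-like and 282912, 134089 and 254596 counts in vascular SMC-like cells, and the share of cells with a count of a gene depends on depth; thinned to 50000 counts, 36 of 60 such shares stayed within the spread between mice and 24 moved.

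As a description over the 18 class-by-mouse sums, with no test, the genes whose log2 levels ran most like Gyg were Gja5 (r = 0.885), Lif (0.884) and the naming marker Col28a1 (0.875). For Plin2 they were H6pd (0.863), Tfpi2 (0.844) and Rreb1 (0.821), for Lpl Trf (0.902), Sfrp1 (0.896) and Tnfsf13b (0.894), and for Tcf21 Fam20a (0.983), Nkd2 (0.928) and Sult1a1 (0.917). For Apoe they were Plxdc2 (0.931), Galns (0.906) and Anxa2 (0.906). Fabp4 ran with 3 naming markers of vascular SMC, Kcnab1 (0.948), P2rx1 (0.938) and Stac (0.934). The sums share mice, plates and depth.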

How the data were processed

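Single cells of 3 mice were sequenced by Smart-Seq2. The values are whole-number counts of reads for each gene in each single cell, as the authors deposited them (653 and 352 cells of the male mice, 371 of the female); bcl2fastq, Bowtie, Bowtie2, Subread and featureCounts and the build GRCm38 (mm10) are named in the submitters' processing notes, with no versions. No source used here says whether counting used strand. Counts ranged from 50835 to 1074103 per cell (median 230688), and rows without a symbol (512 genes) held 0.184% of them. SE values come from the fits over class-by-mouse sums and SD values are over the 3 mice, so both include spread between mice. The limits given for classes with 0 positive cells rest on the number of cells only. Reads carry no molecular identifiers, so counts of reads are not counts of molecules.

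The mouse was the replicate. Genes were split into a pair of parts, cells were clustered on each (1000 variable genes, 30 principal components, 15 neighbours, Leiden resolution 1), and genes of a part were tested between classes from the other; the adjusted Rand index between the clusterings was 0.745. Several selections of variable genes were tried, and the one with the highest agreement between clusterings was kept. Clusters were named from markers. No doublet caller was run; an alternative left out cells with markers of other types (64 of 162 alveolar fibroblast-like cells).

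Counts were summed per class and mouse (at least 10 cells; 162 alveolar fibroblast-like, 102 alveolar myofibroblast-like, 485 vascular SMC-like, 94 pericyte-like, 83 airway SMC-like and 75 adventitial fibroblast-like cells in all) and tested with edgeR 4.0.16 (R 4.3.3; quasi-likelihood, TMM factors, mouse as a block because the classes come from the same animals), and p-values were adjusted by Benjamini-Hochberg over all genes. The planned tests against endothelial- and macrophage-like cells could not be made, since each reached 10 cells in 1 mouse. Alternatives used DESeq2 1.42.0 and limma 3.58.1 on log2(CPM + 1). The fits were tested on simulated data. Besides the 10, the text draws on up to 4 called genes of each list with the smallest adjusted p against alveolar myofibroblast-like cells and up to 2 against each other class, on Fgf10, G0s2, Plin1, Adipoq, Cidec and Dgat2, and on the 3 genes with the highest correlation to each tested gene. The 10 genes and the lists were chosen with earlier results of these data known.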

Additional observations from a re-analysis of the deposited data

How the results depend on the processing

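Across 17 alternatives, 9 of the 16 called differences kept direction and call in each one that could be fitted, 7 lost the call in some (33 values), and 0 reversed; of 29 uncalled differences 3 were called in some, and 12 changed sign in some. The cause was not tested. Of the genes tested, 2.04% were called against alveolar myofibroblast-, 5.89% against vascular SMC-, 5.53% against pericyte-, 4.57% against airway SMC- and 0.32% against adventitial fibroblast-like cells. In the same order DESeq2, run without a filter and so over more genes (29552 against 16231), called 3.89%, 5.53%, 6.85%, 6.03% and 1.45%. With limma on mean CPM, 4.26%, 10.5%, 7.75% and 1.07% were called against the myofibroblast-, pericyte-, airway SMC- and adventitial classes. With only the pair of classes compared, 11.4%, 2.72% and 0.159% were called against the vascular SMC-, pericyte- and adventitial classes. Leaving out 1 mouse gave 0.545% to 1.04%, 2.14% to 2.92%, 1.8% to 2.56%, 1.52% to 1.98% and 0.0254% to 0.112%, from fewer samples. Plate 045s alone for male mouse 1 gave 1.34% against the myofibroblast-like and 0.185% against the adventitial class, plate 046s alone 0.19% against the adventitial class, and a stricter cell filter 0.194% there. Without cells bearing markers of other types, 3.36% were called against pericyte- and 3.23% against airway SMC-like cells.

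Of the 10 genes, 5 were called against airway SMC-like cells and 3 to 4 with 1 mouse left out. Against adventitial fibroblast-like cells 1 was called, 2 with DESeq2 or limma, and 0 with any mouse left out, on either plate alone, with another gene split or without cells of mixed markers. Without the mouse as a replicate block, 1.48%, 4.54%, 3.97%, 3.32% and 0.246% of genes were called, and the counts among the 10 stayed at 3, 4, 3, 5 and 1. Scaling on total counts only put the median log2 fold change of all genes against pericyte-like cells at 0.16, beside 0.27 with TMM factors. Leiden resolution 2 gave values for 3 comparisons. Mean levels moved beyond the spread between mice in 2 cases.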
